A study of Mus musculus with 4 samples.

Results

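The EGF receptor family and its ligands were followed in mouse mammary gland cells sorted 3 days after transplantation. The 10 genes are the receptors Egfr, Erbb2, Erbb3 and Erbb4 and the ligands Areg, Ereg, Hbegf, Tgfa, Epgn and Nrg1, taken with every probe set that the platform annotation maps to exactly 1 of these symbols. Of the 10, 9 were measured, by 18 of the 45141 probe sets of the array. They are 9 of the 17097 genes with such a probe set. The annotation maps no probe set to Areg, so amphiregulin is not analysed here. Where a gene had several probe sets, the one with the highest mean over the 4 arrays stands for it, and the others are given beside it.

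The study asked how collagen signalling and matrix stiffness bear on multipotency of gland stem cells. The BC alone group had received 10000 BC cells, labelled the multipotent condition, and has 2 arrays. The control, labelled unipotent, was transplanted with 2000 BC cells together with 8000 LC cells and also has 2 arrays. No strain, age, allele or drug is named for either group, and RNA of each array came from 50 sorted cells. The labels do not expand BC and LC, which in this field commonly stand for basal and luminal cells. The number of BC cells and the presence of LC cells differ together between the groups and cannot be told apart. Neither the sorting gate nor the donor and host animals are named, so each p-value reflects the spread among these arrays alone, and that spread may be technical.

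Members of the EGF receptor family are tyrosine kinases that pair with each other when a ligand binds. EGFR binds amphiregulin, epiregulin, HB-EGF, TGF-alpha and epigen, while the neuregulins bind ErbB3 and ErbB4. ErbB2 has no known ligand of its own and serves as a partner, and ErbB3 has little kinase activity and signals through its partners. Most ligands are made as membrane proteins and released by metalloproteinases. In the mammary gland, amphiregulin from hormone-sensing luminal cells acts through EGFR of the stroma to drive growth of the ducts.

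The values are deposited RMA values on a log2 scale, with a median of 4.45 over all probe sets and arrays. No detection calls were used, low values are not read as absence, and values of different probe sets are not set against each other. Control replicate 2 stood apart. Its values had an SD of 1.44 over all probe sets, against 1.90 to 1.92 on the other 3 arrays, and it correlated with them at r of 0.915 to 0.919 over probe sets. The basal keratin gene Krt5 had a log2 value of 7.12 on it and 10.22 to 10.76 elsewhere, and the basal transcription factor gene Trp63 had 5.20 and 8.74 to 8.81. The mean of 10 measured basal markers was 9.07 and 8.78 on the BC alone arrays, 9.14 on control replicate 1 and 5.95 on control replicate 2. Many differences below are therefore also given against control replicate 1 alone.

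In the comparison of BC alone with the control, Egfr, Erbb3 and Tgfa had higher log2 values on both BC alone arrays than on both control arrays, and no family gene was lower on both. None of the 9 passed an adjusted p of 0.05 (limma with Benjamini-Hochberg adjustment over 17097 genes, smallest adjusted p of the 9 = 0.842), and neither did any other gene, so that 0% of genes were called. At an unadjusted p under 0.05 in limma there were 680 genes, or 3.98%, and Egfr was the single family gene among them. The 3 of 9 genes higher without overlap stand against 16.8% of all genes, and the 0 of 9 lower without overlap against 19.6%. In either direction, 36.4% of all genes were separated between the groups. A higher mean in BC alone was seen for 5 of 9 genes, and for 46.7% of all genes. The median difference of the 9 was 0.58 log2, where that of all genes was -0.04. Against control replicate 1 alone these medians were 0.21 and 0.005. The shares depend on brightness. Among 10508 genes whose mean over the 4 arrays reached the overall median, 65.4% had a higher mean, and 4 of 7 family genes did. Of these genes 24.9% were higher and 11.2% lower without overlap, beside 3 and 0 of the 7. The median difference was 0.27 for these genes and 0.58 for the 7. With 2 arrays a group, the smallest p an exact permutation test can give is 0.333.

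**Figure D1:**
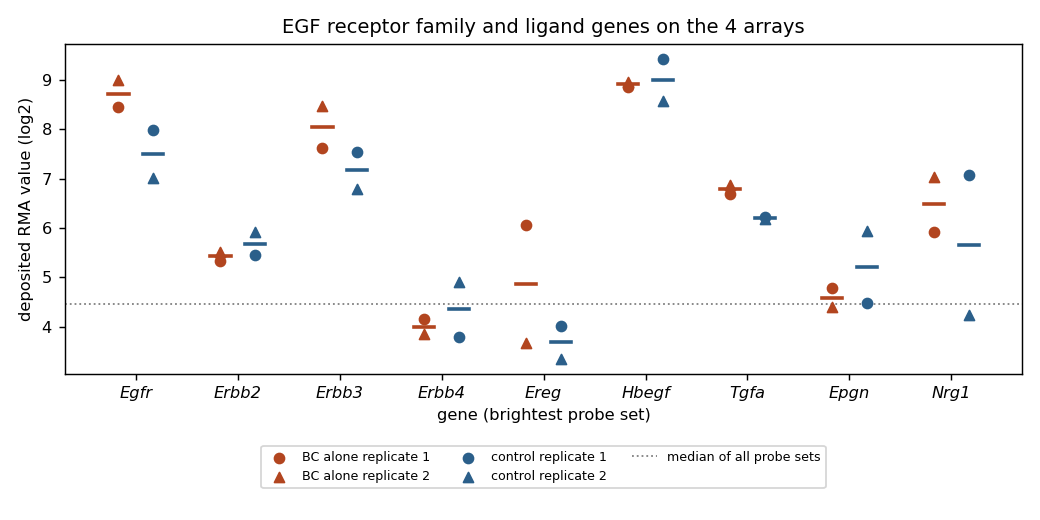
Deposited RMA values (log2, vertical axis) of the 9 measured genes (horizontal axis), with BC alone in brown and the control in blue. Circles are replicate 1, triangles replicate 2, bars the group means (n = 2), and the dotted line the median of all probe sets, 4.45. The BC alone points lie above both control points for Egfr, Erbb3 and Tgfa.

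Egfr, the receptor for most of these ligands, had log2 values of 8.45 and 9.0 in BC alone cells, against 7.99 and 7.01 in control cells. Both BC alone arrays lay above both control arrays, and control replicate 2 was the lowest of the 4. The group means were 8.725 ± 0.39 and 7.50 ± 0.69 (SD, n = 2), a difference of 1.225 ± 0.45 log2 (SE of the fit), or 2.34-fold. The 95% interval of the difference in limma was 0.11 to 2.34, with an unadjusted p of 0.0368 and an adjusted p of 0.842. It was the only one of the 9 genes to differ at least 2-fold without overlap, as 4.79% of all genes did on the higher side and 0.895% on the lower. In both directions together these were 972 genes, or 5.69%, and 84.3% of the 972 were higher in BC alone. That share was 54.4% of 614 genes when the values were quantile normalized again, 56.5% of 533 under cyclic loess and 92.0% of 1243 under median centring. Without control replicate 2 it was 51.2% of 732 genes, 375 higher and 357 lower. Against control replicate 1 alone the Egfr difference was 0.735. It was 0.61 when the values were quantile normalized again and 0.59 under cyclic loess, under 2-fold in both though without overlap. Under median centring it was 1.35.

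The 6 probe sets of Egfr did not all follow the brightest. The next brightest had 8.23 and 8.20 in BC alone cells and 7.81 and 6.85 in control cells, and the one after it had 7.15 and 7.57 against 6.92 and 6.60, so both kept the groups apart. Another, with 6.79 and 6.42 against 6.51 and 4.91, overlapped, since control replicate 1 lay between the BC alone arrays. A dimmer one had a lower mean in BC alone, with 4.60 and 5.27 against 5.53 and 4.95. The dimmest had 4.71 and 4.44 against 4.38 and 4.54, near the median of all probe sets. With the mean of its probe sets in place of the brightest, Egfr differed by 0.57, and the groups still did not overlap.

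Stromal cells also carry Egfr, and most fibroblast markers had higher means as well. Of 9 fibroblast markers measured, 7 had a higher mean in BC alone and 6 were higher without overlap. Their mean log2 value was 7.56 and 7.68 in BC alone cells, against 6.71 and 6.12 in control cells. The collagen gene Col1a1 had 10.84 and 10.91 against 10.30 and 8.62, and the surface marker gene Thy1 had 8.65 and 8.39 against 6.57 and 5.92. Markers of vessels had higher means too, in 4 of 4 pericyte markers measured and 8 of 8 endothelial markers, with median differences of 1.085 and 0.41. Of these, 2 pericyte and 3 endothelial markers were higher without overlap, and the others overlapped. Over all genes, 46.7% had a higher mean and 16.8% were higher without overlap. The pericyte markers averaged 6.36 and 6.24 in BC alone cells, against 4.75 and 5.15 in control cells, and the endothelial markers 6.11 and 5.95 against 5.41 and 5.21. The fibroblast markers Pdgfrb and Col1a2 had a lower mean in BC alone, Pdgfrb with 6.74 and 6.62 against 6.20 and 7.37. The probe sets of Pdgfra and Col1a2 lay under the overall median on every array. Basal markers had a higher mean in 9 of 10, with a median difference of 1.39, or -0.12 against control replicate 1 alone. For the fibroblast markers these medians were 1.415 and 0.575. Macrophage markers had a lower mean in BC alone in 7 of 10, and neutrophil markers in 6 of 6, against 52.9% of all genes. Lower without overlap were 4 of the 10 and 3 of the 6, against 19.6% of all genes. Most of the 6 neutrophil markers lay under the overall median on every array. In sorted pools, fewer cells of a type and less RNA per cell cannot be told apart. The part of RNA of any of these cell types in the Egfr difference was not tested.

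Erbb3, the receptor that signals through its partners, had log2 values of 7.63 and 8.48 in BC alone cells, against 7.55 and 6.80 in control cells. BC alone replicate 1 lay only just above control replicate 1, so the groups were separated by a narrow gap. The means were 8.055 ± 0.60 and 7.175 ± 0.53 (SD, n = 2), and the difference was 0.88 ± 0.45 (SE), with a 95% interval of -0.24 to 2.00 and an adjusted p of 0.842 in limma. A dimmer probe set of Erbb3 also kept the groups apart, with 7.38 and 8.60 against 7.01 and 6.10, a difference of 1.435. Against control replicate 1 alone the brighter one differed by 0.505. After another quantile normalization the Erbb3 groups overlapped, at a difference of 0.35, and after cyclic loess the difference was 0.31.

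BC alone replicate 2 was the highest array for both Erbb3 probe sets. Over the 12 luminal markers measured, the mean log2 value was 7.31 and 7.59 in BC alone cells, against 7.45 and 6.71 in control cells, and 7 of 12 had a higher mean in BC alone. The part of luminal cells in the Erbb3 values was not tested.

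Erbb2, the partner receptor without a ligand, had 5.34 and 5.51 in BC alone cells, against 5.45 and 5.92 in control cells. The groups overlapped, and the difference of -0.26 ± 0.33 (SE) was -0.025 against control replicate 1 alone. Its 95% interval in limma ran from -1.08 to 0.56, so a difference of 2-fold in the lower direction could not be told from none with these arrays. Erbb4, a neuregulin receptor that acts in milk-producing luminal cells, had 4.15 and 3.85 against 3.79 and 4.91. Control replicate 2 was the highest of its 4 arrays, and the other 3 lay under the overall median. The Erbb4 difference of -0.35 ± 0.46 (SE, 95% interval -1.49 to 0.79) turned to 0.21 against control replicate 1 alone.

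Tgfa encodes TGF-alpha, a ligand of EGFR. Its brightest probe set had 6.70 and 6.88 in BC alone cells, against 6.23 and 6.19 in control cells. Here control replicate 2 lay beside control replicate 1, and the BC alone arrays lay above both. The difference was 0.58 ± 0.30 (SE), or 1.495-fold, with a 95% interval of -0.16 to 1.32 and an adjusted p of 0.842 in limma, and it was 0.56 against control replicate 1 alone. The other 2 probe sets of Tgfa did not show this. One had 5.67 and 6.16 in BC alone cells and 5.76 and 5.06 in control cells, with overlap, and the dimmest had 4.93 and 5.31 against 5.59 and 5.49, lower without overlap. The mean of the 3 probe sets differed by 0.22, and the Tgfa groups also overlapped after another quantile normalization, at 0.25.

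The promoters of Egfr and Tgfa are shown because their genes are a receptor and its ligand, both with higher values on both BC alone arrays. Of the 10 genes, 6 matched the RefSeq promoter table of build GRCm38.p6, which holds 250 bases before and 50 bases after each start, and the sequences are credited to RefSeq. Capitals mark the letters GGGCGG on either strand, the GC box to which Sp1 binds. The windows lie at chr11:16751953-16752252 (plus strand) for Egfr and at chr6:86194972-86195271 (plus strand) for Tgfa.
Egfr: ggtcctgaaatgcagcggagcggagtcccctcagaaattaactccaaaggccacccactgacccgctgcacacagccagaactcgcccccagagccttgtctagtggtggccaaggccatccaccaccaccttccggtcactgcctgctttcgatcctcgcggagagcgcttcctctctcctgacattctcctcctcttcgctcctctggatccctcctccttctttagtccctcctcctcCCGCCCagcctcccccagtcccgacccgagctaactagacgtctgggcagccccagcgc
Tgfa: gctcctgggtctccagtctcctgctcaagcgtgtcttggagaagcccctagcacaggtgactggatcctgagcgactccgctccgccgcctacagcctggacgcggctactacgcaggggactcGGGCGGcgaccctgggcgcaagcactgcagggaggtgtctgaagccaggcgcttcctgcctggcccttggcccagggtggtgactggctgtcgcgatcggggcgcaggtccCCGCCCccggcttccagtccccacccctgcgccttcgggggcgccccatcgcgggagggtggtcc
The Egfr window held 1 such match and the Tgfa window 2, where 35.7% of 32851 promoter windows of the same length held at least 1. Neither held TATAAA, the letters of the TATA box, on either strand, which 13.6% of the windows held. The same was true of CCAAT, a promoter element found in 37.4% of them, and of the AP-1 letters TGANTCA, found in 7.81%. G and C made up 62.3% of the Egfr window and 70.7% of the Tgfa window, and the median over all windows was 52.7%. These matches describe letters only.

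**Figure D2:**
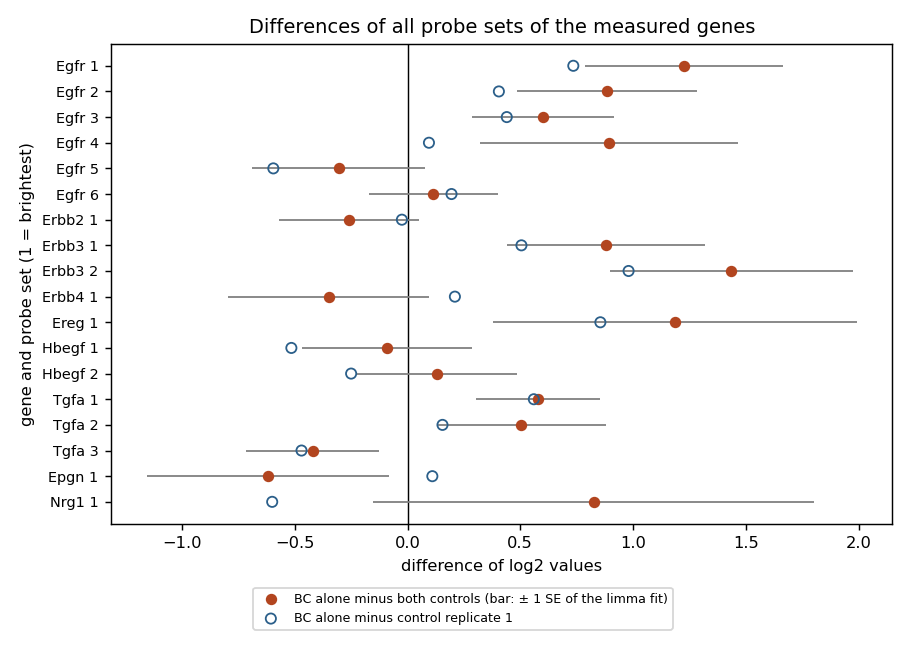
Difference of log2 values (horizontal axis) for each of the 18 probe sets (vertical axis, numbered by brightness within a gene). Filled points are BC alone minus both controls with ± 1 SE of the limma fit, and open points BC alone minus control replicate 1. Of the 6 Egfr probe sets 5 lie above 0 with both controls, both Erbb3 probe sets do, and the dimmest of Tgfa lies below 0.

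Over all 18 probe sets, 12 had a higher mean in BC alone, 6 were higher without overlap and 1 was lower without overlap. Among the 28898 probe sets with 1 symbol these shares were 16.6% higher and 19.5% lower without overlap. The 6 were 3 of Egfr, 2 of Erbb3 and 1 of Tgfa. Probe sets of a gene share their RNA, so they are not replicates.

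Hbegf encodes HB-EGF, a ligand of EGFR and ErbB4 that is made by epithelial cells after wounding. It had 8.86 and 8.97 in BC alone cells, against 9.43 and 8.58 in control cells. The BC alone arrays lay between the control arrays, and a dimmer probe set repeated this with 8.96 and 9.06 against 9.26 and 8.50. The difference was -0.09 ± 0.39 (SE), with a 95% interval of -1.06 to 0.88 and an adjusted p of 0.935 in limma. Its value depended on the scaling. It was -0.80 after another quantile normalization (adjusted p = 0.881 in limma) and -0.84 after cyclic loess, with BC alone below both controls in these scalings, and 0.035 after median centring. Over 13 alternatives the adjusted p of Hbegf ran from 0.244 to 0.999.

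Ereg, which encodes the ligand epiregulin, had 6.06 and 3.67 in BC alone cells, against 4.01 and 3.35 in control cells. BC alone replicate 1 was high and the other 3 arrays lay under the overall median, so the groups overlapped. The mean difference of 1.185 ± 0.80 (SE, adjusted p = 0.842 in limma) rests on that array, and without it the difference was -0.01. Without BC alone replicate 2 it was 2.38. Epgn, the gene of the ligand epigen, had 4.78 and 4.40 against 4.48 and 5.94. Here control replicate 2 was high, and the difference of -0.62 ± 0.54 (SE) turned to 0.11 against control replicate 1 alone.

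Epgn, Ereg, Areg and Btc follow each other on mouse chromosome 5, with no other protein-coding gene between them in the RefSeq table of GRCm38.p6. Btc encodes betacellulin, another ligand of EGFR. It had 4.15 and 3.92 in BC alone cells, against 3.85 and 6.01 in control cells, and a dimmer probe set had 2.90 and 3.30 against 3.31 and 4.29. Btc and Epgn were thus both highest on control replicate 2, while the neighbouring Ereg was lowest there. Control replicate 2 was the highest array for 40.4% of all genes, and for 4 of the 5 other ligands listed below, Btc among them. Its median over all probe sets was 4.62, against 4.37 to 4.38 on the other 3 arrays. Of 8 suprabasal keratinocyte markers, 3 were highest on it and 1 was lowest. Ivl was among the highest, with 4.39 and 4.40 in BC alone cells, against 4.33 and 5.39 in control cells. Krt10 was the lowest, with 5.15 and 6.11 against 5.26 and 4.67. The part of keratinocytes in the Epgn and Btc values was not tested.

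Nrg1, the gene of the ligand of ErbB3 and ErbB4 neuregulin 1, spread more between its arrays than any other of the 9 genes. It had 5.92 and 7.04 in BC alone cells, against 7.08 and 4.23 in control cells. The highest and the lowest value were both control arrays. The difference of 0.825 ± 0.97 (SE, 95% interval -1.60 to 3.25, adjusted p = 0.843 in limma) turned to -0.60 against control replicate 1 alone. The low Nrg1 value stood on the array on which the basal markers Krt5 and Trp63 were also low, and the part of basal cells in it was not tested. Control replicate 2 was the lowest array for 6 of the 9 genes, namely Egfr, Erbb3, Ereg, Hbegf, Tgfa and Nrg1, and for 34.1% of all genes. It was the highest for Erbb2, Erbb4 and Epgn.

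**Figure D3:**
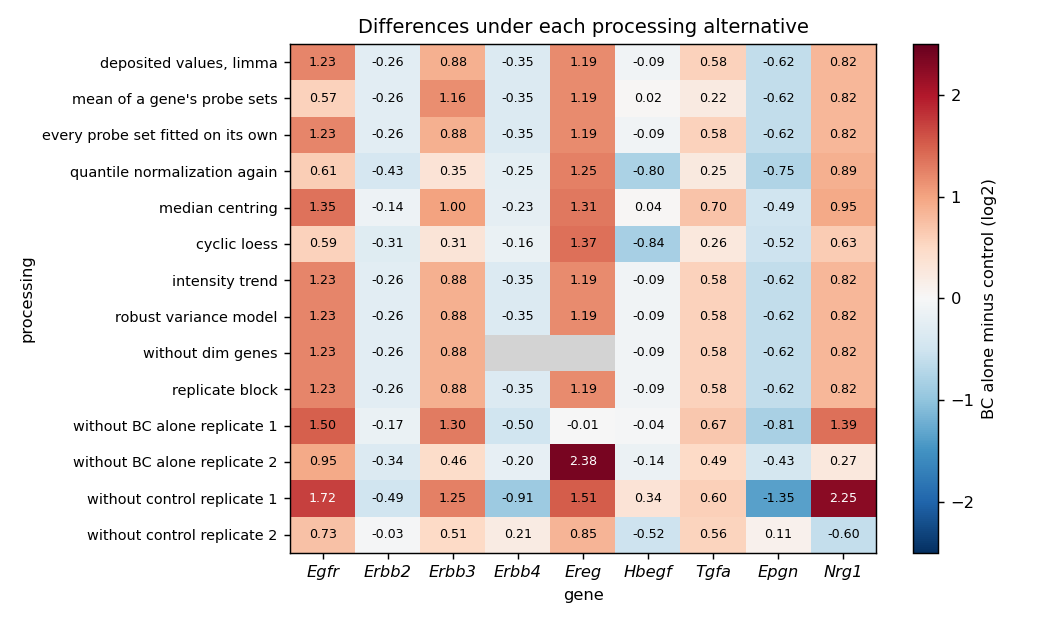
Difference of BC alone minus control (log2, colour and number in each cell) for the 9 genes (horizontal axis) under the deposited values and 13 alternatives (vertical axis). Grey cells are genes left out by the filter on dim genes. Egfr, Erbb2, Erbb3 and Tgfa keep their sign in all 13, while Hbegf changes its sign in 3. Alternatives that change only the fit or the genes fitted repeat the differences of the deposited values.

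Egfr, Erbb3 and Tgfa kept a higher mean in BC alone under all 13 alternatives, and Erbb2 a lower one. Much of this was fixed in advance. Alternatives that change only the fit or the genes fitted keep the group means, so their differences could not turn. For Egfr, Erbb3 and Tgfa, separated without overlap, leaving out 1 array could not turn the sign either. Egfr ranged from 0.57 to 1.715, Erbb3 from 0.31 to 1.305, Tgfa from 0.22 to 0.705 and Erbb2 from -0.495 to -0.025. The sign of Erbb4, Epgn and Nrg1 turned without control replicate 2, and that of Ereg without BC alone replicate 1. No family gene passed an adjusted p of 0.05 in limma under any alternative, the lowest being 0.105.

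Around the receptors and ligands, 90 of 99 pathway genes in 6 lists were measured, and 0 passed an adjusted p of 0.05 in limma, with 5 at an unadjusted p under 0.05. A higher mean in BC alone was seen for 73 of 90, against 46.7% of all genes. Among genes whose mean over the 4 arrays reached the overall median, it was seen for 69 of 82, against 65.4% of 10508. Control replicate 2 was the lowest array for 64 of 90. Against control replicate 1 alone, 53 of 90 were higher, as were 50.3% of all genes, and the median difference of the 90 was 0.05, where it had been 0.53. After cyclic loess 47 of 90 were higher. The counts without overlap in the lists below stand against the same 16.8% of all genes higher and 19.6% lower. Among the 10508 brighter genes these shares were 24.9% and 11.2%.

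**Figure D4:**
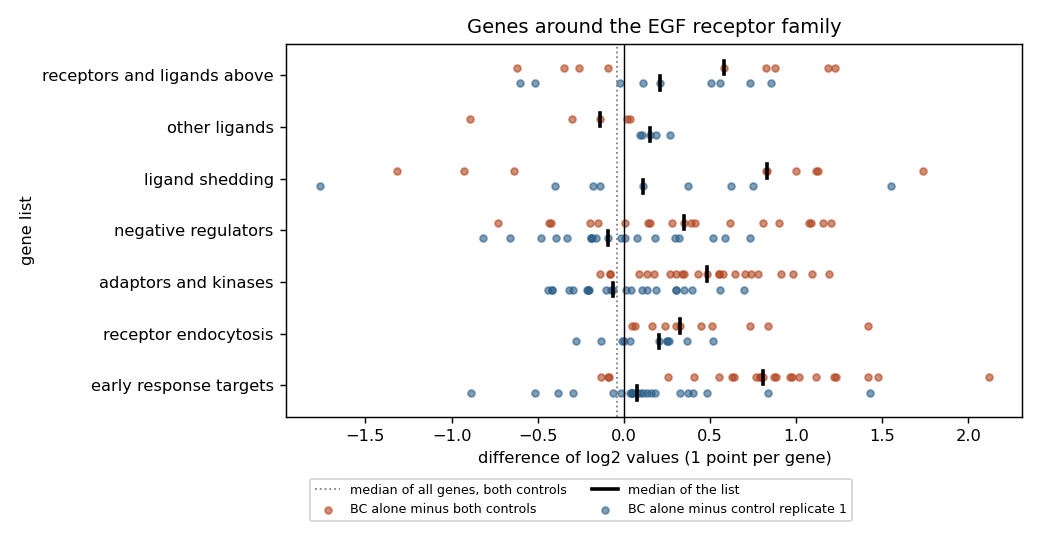
Difference of log2 values (horizontal axis, 1 point per gene) for the 9 receptor and ligand genes and for 6 lists of pathway genes (vertical axis). Brown points are BC alone minus both controls, blue points BC alone minus control replicate 1, black bars the list medians and the dotted line the median of all genes, -0.04. The median of the early response targets is 0.81 with both controls and 0.075 with control replicate 1 alone.

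Among 5 other ligands, 2 had a higher mean in BC alone and none was separated between the groups by its brightest probe set. Egf itself had 3.73 on both BC alone arrays and 3.58 and 3.81 in the control, under the overall median. The 5 had a median difference of -0.14.

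Genes that release the ligands or regulate this release were divided, and their list includes the inhibitor gene Timp3. Of 9 measured, 6 had a higher mean, 5 were higher and 2 lower without overlap, and the median difference was 0.83, or 0.11 against control replicate 1 alone. Adam17, the main sheddase of TGF-alpha, amphiregulin and HB-EGF, had 8.47 and 7.93 in BC alone cells, against 7.58 and 7.16 in control cells, a difference of 0.83 (adjusted p = 0.842 in limma). A second Adam17 probe set also kept the groups apart, at 0.675, and another did not, at 0.07. Adam12, a metalloproteinase of mesenchymal cells, had 7.66 and 7.04 against 5.80 and 6.65, and here control replicate 1 was the lowest, so that the difference against it was 1.55. Its dimmer probe set differed by 1.24.

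Adam10, the sheddase of betacellulin and EGF, had 9.26 and 9.22 in BC alone cells, against 9.13 and 7.12 in control cells. Timp3, the inhibitor of ADAM17, had 9.69 and 9.94 against 9.44 and 6.72. For both, control replicate 1 lay close to the BC alone arrays, with differences of 0.11 and 0.375. Rhbdl2, a rhomboid protease, was lower in BC alone, with 3.84 and 3.79 against 5.58 and 4.68, and a dimmer probe set of it differed by 0.215 in the other direction. Neither Adam10, Timp3 nor Rhbdl2 passed (adjusted p = 0.842 each in limma).

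Of 19 measured negative regulators of the pathway, 14 had a higher mean, 4 were higher and 2 lower without overlap, and the median difference was 0.35, or -0.09 against control replicate 1 alone. Of the Sprouty genes, inhibitors that growth factor signals induce, Spry2 and Spry4 were separated between the groups and Spry1 was not. Spry2 had 9.64 and 9.02 in BC alone cells, against 8.74 and 7.61 in control cells, and Spry4 had 8.10 and 8.0 against 7.32 and 6.63. Against control replicate 1 alone they differed by 0.59 and 0.73. Spred1, a related inhibitor, had 8.43 and 8.25 against 8.02 and 6.26, and 3 of its 5 probe sets overlapped between the groups.

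Errfi1, which encodes the EGFR inhibitor MIG6, had 10.76 and 10.57 in BC alone cells, against 10.68 and 8.48 in control cells. Lrig1, a stem cell marker gene that restrains ErbB receptors, had 7.91 and 7.11 against 7.70 and 6.54. Dusp6, a phosphatase of ERK, had 7.68 and 7.77 against 8.12 and 6.10. In Errfi1, Lrig1 and Dusp6 control replicate 1 lay within or above the BC alone arrays, and only control replicate 2 was below them.

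Adaptors and kinases had a higher mean in 20 of 23 measured, and 5 were higher without overlap. Akt2, a kinase downstream of PI3-kinase, was the only one past 2-fold without overlap, with 9.49 and 9.55 in BC alone cells, against 9.17 and 7.49 in control cells. Its difference was 0.35 against control replicate 1 alone. The median of the list was 0.485 with both controls and -0.065 with control replicate 1. Genes of receptor endocytosis had a higher mean in 11 of 11, with 3 higher without overlap and a median of 0.325, or 0.205 with control replicate 1, and none was past 2-fold without overlap.

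Early response targets are genes that growth factor signals switch on, not all within the hour, although sorting and other stress also induce many. Of 23 measured, 20 had a higher mean and 12 were higher without overlap, and control replicate 2 was the lowest array for 20. Egr1 had 11.53 and 11.58 in BC alone cells, against 11.46 and 9.91 in control cells, and Fos had 11.55 and 11.43 against 11.38 and 9.65. Egr2 had 9.14 and 9.13 against 9.09 and 6.74, Junb 8.61 and 8.67 against 8.59 and 6.66. For these 4 transcription factor genes the gap to control replicate 1 was small beside the gap between the control arrays. Etv5, another transcription factor gene of the ERK pathway, had 6.48 and 6.55 against 6.14 and 4.43.

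Ptgs2, which encodes the prostaglandin enzyme COX-2, had the largest difference of the 90 genes. It had 7.06 and 6.72 in BC alone cells, against 5.46 and 4.08 in control cells, a difference of 2.12 ± 0.52 (SE), and both controls lay well below both BC alone arrays. The adjusted p was 0.842 in limma. With an intensity trend in the variance model it was 0.016, within a range of 0.0128 to 0.999 over 13 alternatives. Against control replicate 1 alone the difference was 1.43. A dimmer Ptgs2 probe set went the other way, at -0.29, with 4.86 and 4.98 against 6.73 and 3.69.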

How the data were processed

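The authors deposited 1 log2 expression value per probe set and array, for which the submitters' processing notes name RMA and affy. No version or genome build, and no word on joint normalisation of the 4 arrays, is given in the sources used here. RMA compresses large differences, so folds may be too small.

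The platform annotation, parts of which are old, named the probe sets. Of them 28898 had 1 symbol, 551 several and 15692 none. All 18 probe sets of the family matched the reference gene table by Entrez identifier. BC alone was compared with the control in limma 3.58.1 (R 4.3.3, lmFit and eBayes, two-sided), fitted on 17097 genes with Benjamini-Hochberg adjustment. The fit had 2 residual and 3.50 prior degrees of freedom. The method was tested on simulated data. Lists were described by counts and medians, with no set test, and no filter on dim values was used.

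The genes and lists were chosen with earlier results of these data known. All family genes were named. From each pathway list up to 4 genes past 2-fold without overlap were named, by size, and Egf, Btc, Errfi1, Lrig1, Adam17, Dusp6, Spry2, Egr1 and Fos whatever their values. Ivl, Krt10, Krt5, Trp63, Col1a1, Thy1, Pdgfra, Pdgfrb and Col1a2 lie outside this rule. The 4 arrays limit the precision. No search for genes with a like pattern was made, since 4 arrays cannot separate them.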

Additional observations from a re-analysis of the deposited data

How the results depend on the processing

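The count of family genes with a higher mean was 5 of 9 and stayed between 4 and 6 under 13 alternatives, and no family gene passed under any. The 3 family genes higher without overlap became 1 when quantile normalized again and 1 under cyclic loess, and 3 to 6 when 1 array was left out, while 1 to 3 then became lower without overlap. A single array overlaps less often, and the shares of all genes rose with it, to 28.2% to 38.4% higher and 31.3% to 45.4% lower. Without control replicate 1 they were 38.4% and 45.4%, beside 6 and 3 family genes. Of 115 differences of single family genes under alternatives, 108 kept their sign and 7 turned. Many of the 108 could not turn, since alternatives that change only the fit or the genes fitted keep the group means. The 7 fell under the mean of probe sets, median centring or leaving out 1 array. Leaving out 1 array gave -0.91 to 0.21 for Erbb4, -0.01 to 2.38 for Ereg, -0.515 to 0.335 for Hbegf, -1.35 to 0.11 for Epgn and -0.60 to 2.25 for Nrg1. Hbegf was also at 0.02 with the mean of its probe sets and at 0.035 after median centring. Pathway genes with a higher mean were 73 of 90, 47 after cyclic loess and 53 to 73 when 1 array was left out. Genes past the threshold were 0 of 17097 and 97 with an intensity trend, 56 higher and 41 lower, or 108 with the replicate block, 94 higher and 14 lower. Among pathway genes 1 passed with the trend and 1 with the block, Ptgs2 both times (adjusted p = 0.016 and 0.0128 in limma). The calls of these 2 fits lean on a spread shared over genes. The trend fit had 826 prior degrees of freedom, against 3.50 in the main fit, and the block fit gave every family gene an SE of 0.5116. The labels do not say whether the replicate numbers pair the arrays. Same-numbered deviations correlated at -0.00257 over probe sets, which cannot settle it with 2 arrays a group. The block changed no call of a family gene. Genes past 2-fold without overlap were 972, against 620 with the mean of probe sets, 614 under repeated quantile normalization, 533 under cyclic loess and 732 to 3824 when 1 array was left out, with 1502 without BC alone replicate 2 and 3824 without control replicate 1. Under median centring the median difference over all genes was 0.085, against -0.04. The filter on dim genes left 7 of the 9 family genes, without Erbb4 and Ereg. The cause of these shifts was not tested, and signal over background was not analysed here.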
